A study of Homo sapiens with 10 samples.

Results

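Tight junction and apical polarity genes are described here in MCF10A, a line of breast epithelial cells that grows without limit but forms no tumours, with and without the histone variant H2A.X. The list holds 47 genes of the epithelial barrier and of the complexes that set the apical side of a cell. Where a gene had several named probe sets, the brightest on average represented it, and 38 of the 47 had such a probe set, out of 14884 genes named on the array. The other 9, F11R, CXADR, MAGI1, MAGI3, PALS1, PRKCI, PRKCZ, DLG1 and DLG5, were not analysed here. Each of the 38 had 1 named probe set.

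The 5 parental arrays (MCF10A WT, wild type for H2A.X) and the 5 knockout arrays (MCF10A H2A.X-KO) came from cells that shared every culture condition named in the labels: DMEM/F12 with 5% horse serum, 500 ng/ml hydrocortisone, 20 ng/ml EGF, 100 ng/ml cholera toxin, 10 μg/ml insulin and antibiotics, for 48 h. Labelled RNA was made from 1 μg of total RNA. The labels do not say how H2A.X was knocked out, whether the knockout cells were 1 clone or several, or whether the arrays of a group came from separate cultures. The p-values therefore reflect the scatter among these arrays alone, and that scatter may be technical. The title of the series asks how loss of H2A.X relates to epithelial-mesenchymal transition (EMT), the loss of epithelial character, through Twist1 and Slug, transcription factors encoded by TWIST1 and SNAI2.

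Tight junctions seal the space between neighbouring epithelial cells near their apical edge. Claudins form the strands of the seal, and occludin and its relatives with a MARVEL domain join them. Zonula occludens scaffolds tie the strands to actin. The Crumbs, PAR and Scribble complexes hold the apical and basolateral sides apart, and the junction assembles where they meet. MCF10A cells are known for making incomplete tight junctions and for a partly mesenchymal profile in sparse culture.

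Values are log2 signals, in which a step of 1 is a 2-fold change, and differences are knockout minus parental. A signal is compared only with the same probe set on other arrays. Array medians over the 14884 genes lay between 5.47 and 5.51. A mean under the median of all gene means (5.49) is called dim, because background makes up more of a dim signal and compresses differences, and 18 of the 38 members were dim. Correlations of arrays across genes were 0.991 to 0.996 within and 0.975 to 0.979 between the groups, and on the second principal component knockout replicate 1 scored 20.2 where the remaining knockout arrays scored -9.5 to -2.5.

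More tight junction and polarity genes were lower than higher in the knockout, led by OCLN, CLDN7 and TJP1. Of the 38 members, 11 fell, 3 rose and 24 did not pass an adjusted p under 0.05 in limma, which is 36.8% called, beside 34.3% of all 14884 genes. With the arrays centred on their medians over all 53617 probe sets (4.26 to 4.35), 11 fell and 1 rose. The count of rises is unsteady, with 5 without knockout replicate 1 and 1 without knockout replicate 2, 3 or 4 or parental replicate 1 or 2. The share called is therefore close to that of the whole array. By direction, 28.9% of the members fell, beside 19.0% of all genes, and 7.89% rose, beside 15.3%. The 3 members that differed by at least 2-fold, OCLN, CLDN7 and TJP1, were all lower and made up 7.89% of the list, beside 2.81% of all genes. The groups did not overlap in 11 members (28.9%, beside 28.2% of all genes). The median difference of the members was -0.07, and that of all genes 0.00. Of the 20 members that were not dim, 9 fell and 2 rose, 55.0% in all. Of the 7442 genes that were not dim, 31.5% fell and 24.1% rose, 55.6% in all. Fewer cells with a transcript and less of it per cell cannot be told apart in these bulk samples.

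**Figure D1:**
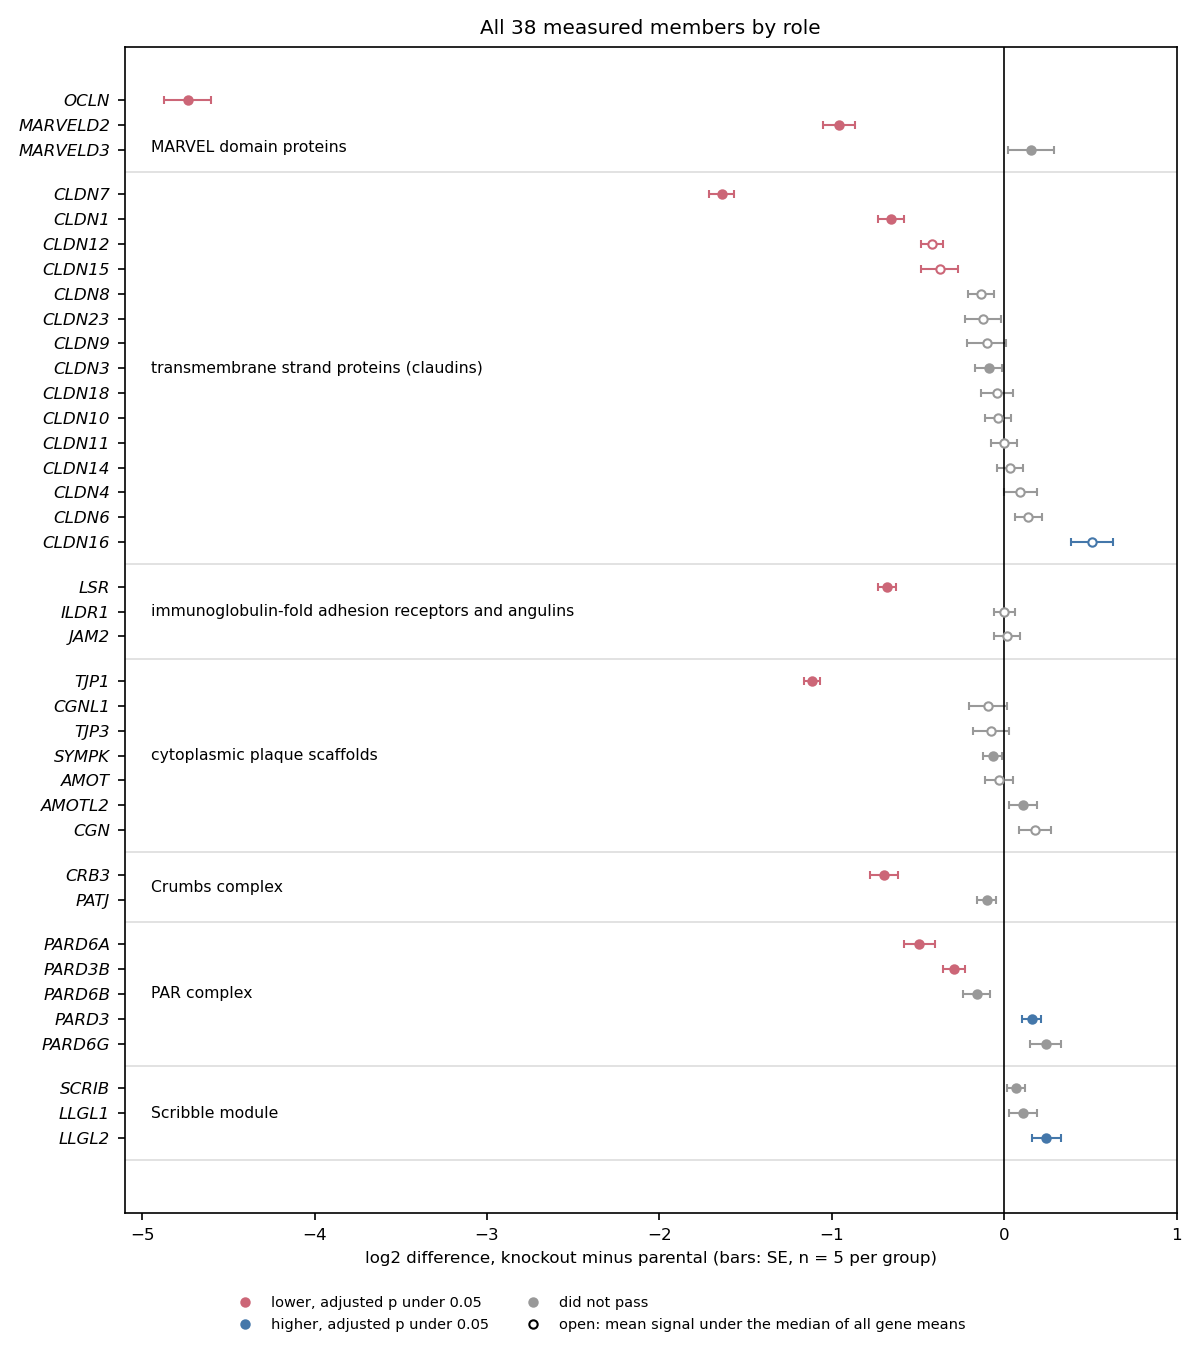
Log2 difference, knockout minus parental (x axis), of each of the 38 measured members (y axis), grouped by role. Points are limma estimates with their SE (n = 5 per group), red where lower, blue where higher and grey where the test was not passed, and open where the mean signal was dim. OCLN lies at -4.73, beyond CLDN7 at -1.64 and TJP1 at -1.12, while 24 grey members lie between -0.16 and 0.24.

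Among the genes with a MARVEL domain, OCLN and MARVELD2 fell and MARVELD3 did not pass. OCLN, which encodes occludin, read 8.20, 8.40, 8.26, 8.31 and 8.15 on the parental arrays 1 to 5 and 3.01, 3.36, 3.74, 3.87 and 3.67 on the knockout arrays 1 to 5. The parental arrays lay close together, and every knockout array lay under the median of all genes on that array, so how many fold it fell is uncertain. The difference was -4.73 ± 0.14 (log2, SE, n = 5 per group, limma adjusted p = 1.07e-10), and with each array left out in turn it stayed between -4.82 and -4.61. In the knockout the spread was wider (SD 0.34 against 0.10), with replicate 1 the lowest.

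MARVELD2 encodes tricellulin, which seals the points where 3 cells meet. It read 8.21, 8.31, 8.20, 8.37 and 8.15 on the parental arrays 1 to 5 and 7.16, 7.35, 7.39, 7.54 and 7.01 on the knockout arrays 1 to 5, without overlap, and differed by -0.96 ± 0.09 (log2, SE, n = 5 per group, limma adjusted p = 3.12e-06). Its knockout signal stayed well above the array medians, unlike that of OCLN. MARVELD3 encodes the remaining member of the occludin family and read 5.45, 5.54, 5.52, 5.72 and 5.33 on the parental arrays 1 to 5 and 5.12, 5.71, 5.95, 5.76 and 5.80 on the knockout arrays 1 to 5. Knockout replicate 1 was the lowest of all 10 arrays and the other 4 knockout arrays lay at 5.71 or above. The difference was 0.15 (adjusted p = 0.431), and without knockout replicate 1 it was 0.29 (adjusted p = 0.0150), past the test and opposite to its relatives.

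Promoters were searched because the series title names Slug, a protein of the Snail family whose factors are known to bind the E-box CAGGTG. Only windows that hold this motif are printed, and only for OCLN, CLDN7, TJP1 and CRB3, so they were not chosen by size of fall alone. They come from the RefSeq promoter table of GRCh38.p14, which gives 250 bases before and 50 after each annotated start. The motif, searched on both strands as CAGGTG or CACCTG, is in capitals, and letters run 5′ to 3′ on the gene's strand. A match is a description of these letters and not a bound site. OCLN has 2 annotated starts on chromosome 5, whose windows overlap, and both hold the motif.
OCLN, chr5:69492297-69492596, plus strand: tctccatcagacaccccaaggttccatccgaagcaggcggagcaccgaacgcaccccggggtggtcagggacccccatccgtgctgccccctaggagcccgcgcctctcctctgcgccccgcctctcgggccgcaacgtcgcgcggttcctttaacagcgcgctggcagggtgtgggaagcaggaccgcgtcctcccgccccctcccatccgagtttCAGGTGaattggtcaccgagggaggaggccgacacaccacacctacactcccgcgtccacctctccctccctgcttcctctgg
OCLN, chr5:69492540-69492839, plus strand: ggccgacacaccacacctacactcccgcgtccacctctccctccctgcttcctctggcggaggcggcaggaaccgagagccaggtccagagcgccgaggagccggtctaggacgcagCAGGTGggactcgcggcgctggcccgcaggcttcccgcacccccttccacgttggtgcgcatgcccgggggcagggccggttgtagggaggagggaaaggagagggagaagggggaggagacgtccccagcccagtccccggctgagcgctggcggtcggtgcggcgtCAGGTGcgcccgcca
The first window holds CAGGTG at bases 218 to 223, and the next at bases 118 to 123 and 286 to 291, all counted from the window's first base. The single windows of MARVELD2 and of LSR, which also fell, hold none.

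Claudin genes that fell were CLDN7, CLDN1, CLDN12 and CLDN15, CLDN16 rose, and 10 of the 15 measured did not pass. The share called (33.3%) was close to that of all genes (34.3%), and 20.0% had groups without overlap, beside 28.2% of all genes. CLDN7, whose product also binds EPCAM at the basolateral membrane, read 7.80, 7.83, 7.82, 8.01 and 7.88 on the parental arrays 1 to 5 and 6.11, 6.23, 6.09, 6.40 and 6.31 on the knockout arrays 1 to 5. The lowest parental array was far above the highest knockout array. The fall was -1.64 ± 0.07 (log2, SE, n = 5 per group, limma adjusted p = 3.31e-09), which is 3.11-fold in signal. CLDN1, which encodes the claudin that the skin barrier cannot do without, read 10.39, 10.40, 10.41, 10.27 and 10.19 on the parental arrays 1 to 5 and 9.65, 9.68, 9.82, 9.76 and 9.48 on the knockout arrays 1 to 5. Its arrays did not overlap, but its signal stayed far above the array medians in both groups and the difference was -0.66 ± 0.07 (log2, SE, n = 5 per group, limma adjusted p = 1.18e-05), 1.58-fold.

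CLDN7 has 2 annotated starts on chromosome 17, and the window of the downstream start is shown for its 5 copies of the motif, at bases 77 to 82, 116 to 121, 231 to 236, 242 to 247 and 256 to 261.
CLDN7, chr17:7262429-7262728, minus strand: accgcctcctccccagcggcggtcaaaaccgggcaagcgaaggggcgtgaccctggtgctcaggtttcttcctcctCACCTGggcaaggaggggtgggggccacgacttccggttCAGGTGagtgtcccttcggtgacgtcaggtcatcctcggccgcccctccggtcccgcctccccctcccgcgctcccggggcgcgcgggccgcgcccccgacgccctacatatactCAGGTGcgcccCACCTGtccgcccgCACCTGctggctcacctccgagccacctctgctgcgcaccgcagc
The other window of CLDN7 and the windows of CLDN1, CLDN12 and CLDN15 hold no copy.

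CLDN12 and CLDN15 were dim. CLDN12, a claudin that lacks the usual tail for binding PDZ domains, read 4.70, 4.95, 4.80, 4.90 and 4.83 on the parental arrays 1 to 5 and 4.40, 4.34, 4.46, 4.34 and 4.55 on the knockout arrays 1 to 5, and differed by -0.42 ± 0.06 (log2, SE, n = 5 per group, limma adjusted p = 0.000187) without overlap. CLDN15, which makes pores for cations in the gut, read 5.75, 5.41, 5.64, 5.19 and 5.63 on the parental arrays 1 to 5 and 5.26, 5.13, 5.32, 5.11 and 4.93 on the knockout arrays 1 to 5. Its groups overlapped and the difference was -0.38 ± 0.11 (log2, SE, n = 5 per group, limma adjusted p = 0.0141). CLDN16, a claudin of magnesium uptake in the kidney, read 3.63, 4.08, 3.69, 3.70 and 3.58 on the parental arrays 1 to 5 and 4.46, 4.25, 3.85, 4.25 and 4.44 on the knockout arrays 1 to 5, with overlap because parental replicate 2 was high, and differed by 0.51 ± 0.12 (log2, SE, n = 5 per group, limma adjusted p = 0.00500). All 10 of its values lay under the array medians, and CLDN16 is the measured gene next to CLDN1 in RefSeq order, the one dim and higher, the other bright and lower.

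The 10 claudin genes that did not pass were CLDN3, CLDN4, CLDN6, CLDN8, CLDN9, CLDN10, CLDN11, CLDN14, CLDN18 and CLDN23, with differences from -0.13 to 0.14. CLDN3 alone among them was not dim, at 7.07 ± 0.12 in parental and 6.98 ± 0.13 in knockout cells (SD, n = 5 each), a difference of -0.09 (adjusted p = 0.431). CLDN4, whose product is a sealing claudin of many epithelia, was dim at 4.28 ± 0.12 and 4.37 ± 0.20 (adjusted p = 0.523). CLDN9 passed without knockout replicate 1, at -0.22 (adjusted p = 0.0305). The SE of the difference was 0.08 to 0.12 for the 9 that were dim, which limits what 5 arrays a group could detect.

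**Figure D2:**
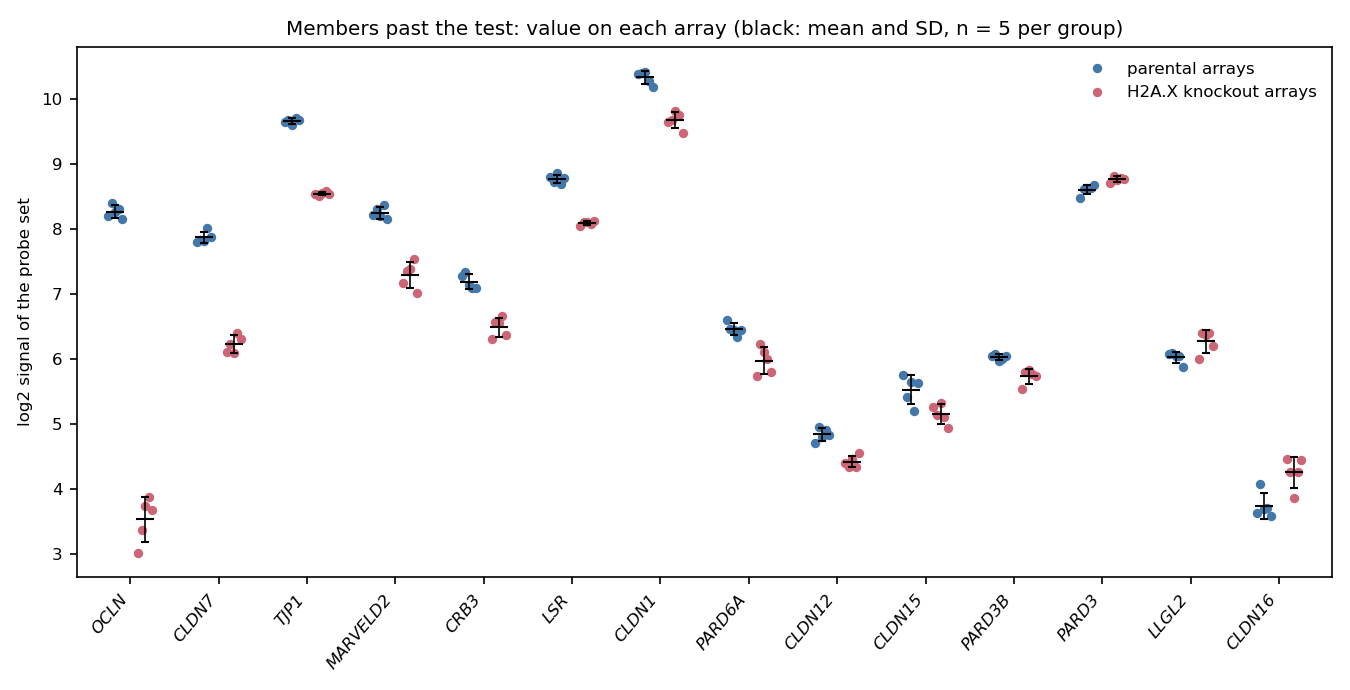
Log2 signal (y axis) on each array of the 14 members that passed the test (x axis, ordered by difference), parental in blue and knockout in red, with the mean and SD of 5 arrays in black. OCLN drops from between 8.15 and 8.40 to between 3.01 and 3.87, while the 3 members at the right that rose, PARD3, LLGL2 and CLDN16, have groups that lie close together.

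Of the adhesion receptors, LSR fell. LSR encodes angulin-1, which recruits tricellulin to the corners between cells, and read 8.80, 8.72, 8.86, 8.69 and 8.78 on the parental arrays 1 to 5 and 8.04, 8.10, 8.10, 8.08 and 8.12 on the knockout arrays 1 to 5. The knockout arrays hardly differed from each other and all lay below every parental array, and the difference was -0.68 ± 0.05 (log2, SE, n = 5 per group, limma adjusted p = 3.82e-07), 1.60-fold. The lower signals of LSR and of MARVELD2 concern both partners of that corner complex. ILDR1, which encodes angulin-2, was dim and differed by 0.00 (adjusted p = 0.989), and JAM2, a junctional adhesion molecule, was dim and differed by 0.01 (adjusted p = 0.914).

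Among the 7 measured cytoplasmic scaffolds only TJP1 passed the test. TJP1 encodes ZO-1, which binds claudins and occludin and links them to actin. It read 9.65, 9.67, 9.60, 9.71 and 9.67 on the parental arrays 1 to 5 and 8.53, 8.51, 8.55, 8.58 and 8.54 on the knockout arrays 1 to 5. This was the tightest of the large differences, with SDs of 0.04 and 0.03, and the fall was -1.12 ± 0.05 (log2, SE, n = 5 per group, limma adjusted p = 2.70e-09), 2.17-fold. The scaffold genes TJP3, CGN (cingulin), CGNL1 (paracingulin) and AMOT (angiomotin) were dim, with differences of -0.08, 0.18, -0.09 and -0.03. AMOTL2, of the angiomotin family, was at 7.29 ± 0.09 and 7.40 ± 0.16, and SYMPK, whose product symplekin acts in mRNA 3′ end processing and is also found at junctions, at 8.05 ± 0.04 and 7.99 ± 0.07 (SD, n = 5 each). For both the groups overlapped (adjusted p = 0.352 and 0.383).

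TJP1 has 4 windows on chromosome 15, of which the most upstream holds the motif, at bases 163 to 168.
TJP1, chr15:29969000-29969299, minus strand: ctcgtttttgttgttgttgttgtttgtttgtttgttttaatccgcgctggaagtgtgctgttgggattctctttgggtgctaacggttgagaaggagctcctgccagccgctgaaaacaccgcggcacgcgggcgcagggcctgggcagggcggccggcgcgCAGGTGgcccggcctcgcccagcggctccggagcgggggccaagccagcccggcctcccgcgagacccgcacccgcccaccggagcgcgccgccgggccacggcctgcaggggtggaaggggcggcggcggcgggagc

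In the Crumbs complex, which marks the apical membrane, CRB3 fell and PATJ did not pass. CRB3 encodes the Crumbs protein of most epithelia and read 7.28, 7.34, 7.13, 7.09 and 7.09 on the parental arrays 1 to 5 and 6.31, 6.56, 6.55, 6.66 and 6.36 on the knockout arrays 1 to 5. The groups did not overlap and the difference was -0.70 ± 0.08 (log2, SE, n = 5 per group, limma adjusted p = 1.55e-05), 1.62-fold. PATJ, whose product joins the Crumbs complex to ZO-3 and claudins, read 8.34, 8.40, 8.37, 8.45 and 8.35 on the parental arrays 1 to 5 and 8.20, 8.27, 8.29, 8.23 and 8.41 on the knockout arrays 1 to 5, with overlap at the knockout replicate 5 value, and differed by -0.10 (adjusted p = 0.189). The window of CRB3 on chromosome 19 holds 5 copies of the motif, at bases 23 to 28, 43 to 48, 104 to 109, 162 to 167 and 191 to 196.
CRB3, chr19:6464021-6464320, plus strand: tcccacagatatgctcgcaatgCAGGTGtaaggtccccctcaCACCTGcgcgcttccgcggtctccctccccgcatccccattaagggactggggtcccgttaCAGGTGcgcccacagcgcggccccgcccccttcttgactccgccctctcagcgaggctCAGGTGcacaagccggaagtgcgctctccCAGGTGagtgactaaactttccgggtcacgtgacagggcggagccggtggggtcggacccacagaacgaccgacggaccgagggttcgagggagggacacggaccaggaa
The window of PATJ holds 3 copies, so a motif was present in a member that fell and in its partner that did not pass.

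Genes of the PAR complex, which carries atypical protein kinase C to the apical side, moved in both directions by less than 2-fold. PARD6A, an adaptor between CDC42 and the kinase, was at 6.46 ± 0.09 in parental and 5.97 ± 0.21 in knockout cells (SD, n = 5 each), without overlap, and differed by -0.49 ± 0.09 (log2, SE, n = 5 per group, limma adjusted p = 0.000886). PARD3B, a relative of PARD3, was at 6.03 ± 0.04 and 5.73 ± 0.11 (SD, n = 5 each), also without overlap, and differed by -0.29 ± 0.06 (log2, SE, n = 5 per group, limma adjusted p = 0.00249). PARD3, the scaffold that places the complex at junctions, read 8.48, 8.61, 8.63, 8.63 and 8.68 on the parental arrays 1 to 5 and 8.71, 8.82, 8.76, 8.78 and 8.77 on the knockout arrays 1 to 5. Its groups nearly touched and the rise was 0.16 ± 0.05 (log2, SE, n = 5 per group, limma adjusted p = 0.0355). The call of PARD3 ended in 8 of the 10 settings that left out an array, in which its difference stayed between 0.13 and 0.18 with an adjusted p of at most 0.0891, and when arrays were centred on their medians (adjusted p = 0.122).

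The paralogues PARD6B and PARD6G did not pass. PARD6B was at 6.92 ± 0.09 and 6.76 ± 0.16 and PARD6G at 5.72 ± 0.18 and 5.96 ± 0.12 (SD, n = 5 each), differences of -0.16 (adjusted p = 0.143) and 0.24 (adjusted p = 0.0547). PARD6G passed, among other settings, without knockout replicate 1 (adjusted p = 0.0311), without parental replicate 3 (0.0242) and without parental replicate 4 (0.0284), and PARD6B without knockout replicate 2 (-0.21, adjusted p = 0.0411). PARD6A and PARD6G thus had opposite signs, and the difference between them was not tested.

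The Scribble module, which defines the basolateral side, showed no fall in its 3 measured genes of 5 listed. DLG1 and DLG5 were not analysed here. LLGL2, a Lgl protein of epithelia that opposes atypical protein kinase C, read 6.07, 6.09, 6.05, 6.04 and 5.88 on the parental arrays 1 to 5 and 5.99, 6.40, 6.37, 6.39 and 6.20 on the knockout arrays 1 to 5. Knockout replicate 1 lay inside the parental range, and the rise was 0.24 ± 0.08 (log2, SE, n = 5 per group, limma adjusted p = 0.0373). Without knockout replicate 1 it was 0.31 (adjusted p = 0.00238), and 8 of the other 9 left-out arrays ended the call (adjusted p up to 0.0916). Its relative LLGL1 was at 7.22 ± 0.08 and 7.33 ± 0.17, and SCRIB, the scaffold of the module, at 6.46 ± 0.06 and 6.53 ± 0.06 (SD, n = 5 each), with adjusted p of 0.356 and 0.389.

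Over all members, the motif was found in the windows of 6 of the 11 members that fell (OCLN, CLDN7, TJP1, CRB3, PARD3B and PARD6A), of 7 of the 17 with a window that did not pass, and of the 1 of 3 risers with a window (CLDN16). As shares these are 54.5% and 41.2% of genes, beside 24.6% of the 10749 measured genes with a window, 23.0% of all genes that fell and 25.7% of all that did not pass. Genes with several windows have more chances to hold it. By window, 16 of the 42 windows of measured members (38.1%) held it, beside 20.6% of all 35116 windows. Windows with at least 5 copies numbered 33 of 35116 (0.0940%), and those of CLDN7 and CRB3 were among them. That cut was not planned and equals the number of copies in the CLDN7 and CRB3 windows, so the share is a description only. With the wider E-box CANNTG, in which N is any base and which includes CAGGTG, 7 of the 11 members that fell (63.6%) had a match, beside 69.6% of the measured genes with a window and 67.2% of all genes that fell. SNAI2 itself rose by 0.48 and TWIST1 did not pass (0.25, adjusted p = 0.168). TWIST1 read 5.33 to 5.57 on the parental arrays, 5.23 on knockout replicate 1 and 5.65 to 6.17 on the other knockout arrays. It lay under the array median on 4 parental arrays and 1 knockout array. Whether the motif has a part in the falls was not tested.

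Neighbouring genes were compared to see whether the falls extended along the chromosome. The 20 nearest measured genes around each member, 10 on each side in RefSeq order, had median differences of 0.02 for OCLN, 0.06 for TJP1, 0.04 for CLDN7, 0.07 for CLDN1, 0.03 for LSR, -0.04 for CRB3 and 0.03 for PARD6A, while the members themselves differed by -4.73, -1.12, -1.64, -0.66, -0.68, -0.70 and -0.49. Around LLGL2 the median was 0.20, close to its own 0.24, and 10 of its 20 neighbours rose and 1 fell. MARVELD2 is the measured gene next to OCLN, and the median around it was -0.00, with 6 of its 20 neighbours lower and 4 higher. Of the 20 neighbours of OCLN 5 fell and 4 rose. Chosen after their values were seen, the others that fell were RAD17, a checkpoint gene, at -0.50 (adjusted p = 1.86e-05), CCDC125 at -0.57 (adjusted p = 1.81e-05) and OCLNP1, an OCLN pseudogene that may share probe sequence with it, at -2.75 (adjusted p = 5.73e-09), and MAP1B, which encodes a microtubule protein, at -1.12 (adjusted p = 5.34e-07). In RefSeq order CCDC125, RAD17, MARVELD2 and OCLN follow each other, so the falls there lay in consecutive measured genes. The neighbours of OCLN that rose were MCCC2, next after OCLNP1, at 0.54 (adjusted p = 2.21e-06), MRPS27 at 0.52, CCNB1 at 0.32 and KGD4 at 0.32. SERF1A, listed between OCLN and OCLNP1, differed by 0.01 and is known to have a near-identical copy. With 5 neighbours on each side the median around OCLN was -0.25. Beside TJP1, NSMCE3 fell by 0.77 (adjusted p = 6.82e-05) and the pseudogene ULK4P3 fell by 0.99 (adjusted p = 0.00317), while ARHGAP11B, the third gene on that side, rose by 0.69 (adjusted p = 8.19e-05). Beside CLDN7, ELP5 fell by 0.42 (adjusted p = 0.000596) and CTDNEP1, next to ELP5, by 0.31 (adjusted p = 0.00141). The falls there also lay in consecutive measured genes, and 2 of the 20 neighbours of CLDN7 fell and 2 rose. Around CLDN12 (-0.42) the median was -0.07, with 7 of 20 neighbours lower and 3 higher, beside 19.0% and 15.3% of all genes. GTPBP10 (-0.37) and CFAP69 (-0.27, dim) precede CLDN12 directly. These genes too were chosen after their values were seen. Copy number was not measured and its part in these differences was not tested.

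**Figure D3:**
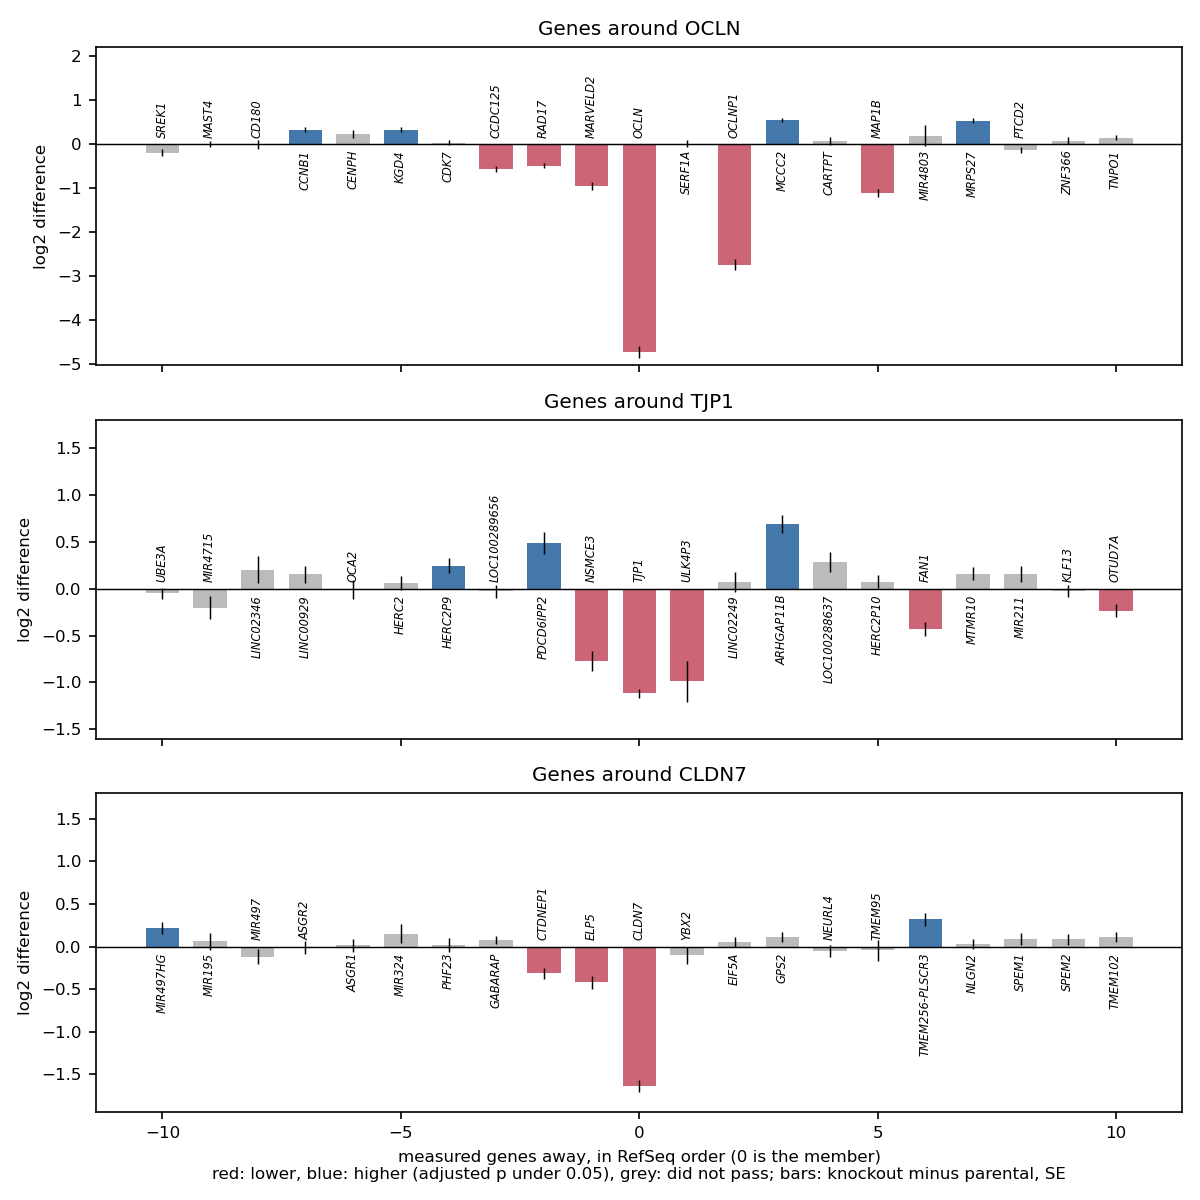
Log2 difference, knockout minus parental with SE (y axis), of the 10 measured genes on each side of OCLN, TJP1 and CLDN7 in RefSeq order (x axis, genes away). Red and blue bars passed the test (lower and higher) and grey bars did not. OCLN at -4.73 has MARVELD2 (-0.96) and OCLNP1 (-2.75) near it, while most bars around CLDN7 lie near 0.

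Partner genes were drawn from lists of the same pathway, of which 4 are described. Among 5 measured genes of EPCAM, matriptase and their partners, EPCAM, which binds CLDN7, fell by 2.14 and ST14, which encodes matriptase, a protease known to cleave EPCAM, fell by 1.36. With 2 of 5 called the share was 40.0%, beside 34.3% of all genes. Neither CD9 (-0.02), CD151 (-0.17) nor TSPAN8 (-0.14) passed, although the groups of CD151 did not overlap.

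Other junction and polarity genes had 3 falls and 2 rises of 23, 21.7% called beside 34.3% of all genes, with a median of 0.00. USP53, a tight junction protein that binds ZO-1, fell by 0.55, LIN7C, a partner of the Crumbs scaffold PALS1, fell by 0.51 and RASSF8 fell by 0.32. AMOTL1, of the angiomotin family, rose by 0.77 and TJAP1, a tight junction associated protein gene, by 0.28. The remaining claudins of that list (CLDN2, CLDN5, CLDN17, CLDN19, CLDN20, CLDN22, CLDN24, CLDN25 and CLDN34) and JAM3 did not pass.

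Adherens junction partners had 2 falls, the nectins NECTIN2 (-0.53) and NECTIN1 (-0.44), and 1 rise, JUP (0.53), of 6 measured (33.3% and 16.7%, beside 19.0% and 15.3% of all genes). NECTIN1 was dim. Of 16 transcription regulators of epithelial junctions, 4 fell (25.0%, beside 19.0% of all genes) and 3 rose (18.8%, beside 15.3%), shares near those of the whole array, with a median of 0.04. Without knockout replicate 1, 3 of them fell and 5 rose. ESRP1, a splicing regulator of epithelial transcripts, fell by 3.79. Every knockout array of ESRP1 lay under the array median, so how many fold it fell is uncertain. KLF4 fell by 0.48 and KLF5 by 0.40. GRHL1, dim and with overlapping groups, fell by 0.31. Its call ended without knockout replicate 1 or 4 or parental replicate 4 or 5 (adjusted p up to 0.0737). GRHL3 rose by 0.82 and SNAI2 by 0.48. ZEB2 rose by 0.24, but it was dim and its groups overlapped. SNAI1 (0.00, adjusted p = 0.977) and ZEB1 (-0.04, adjusted p = 0.699) were dim and did not pass. GRHL2, a known activator of claudin genes, was dim in both groups at 4.01 ± 0.13 and 4.07 ± 0.06 (SD, n = 5 each, adjusted p = 0.579).

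**Figure D4:**
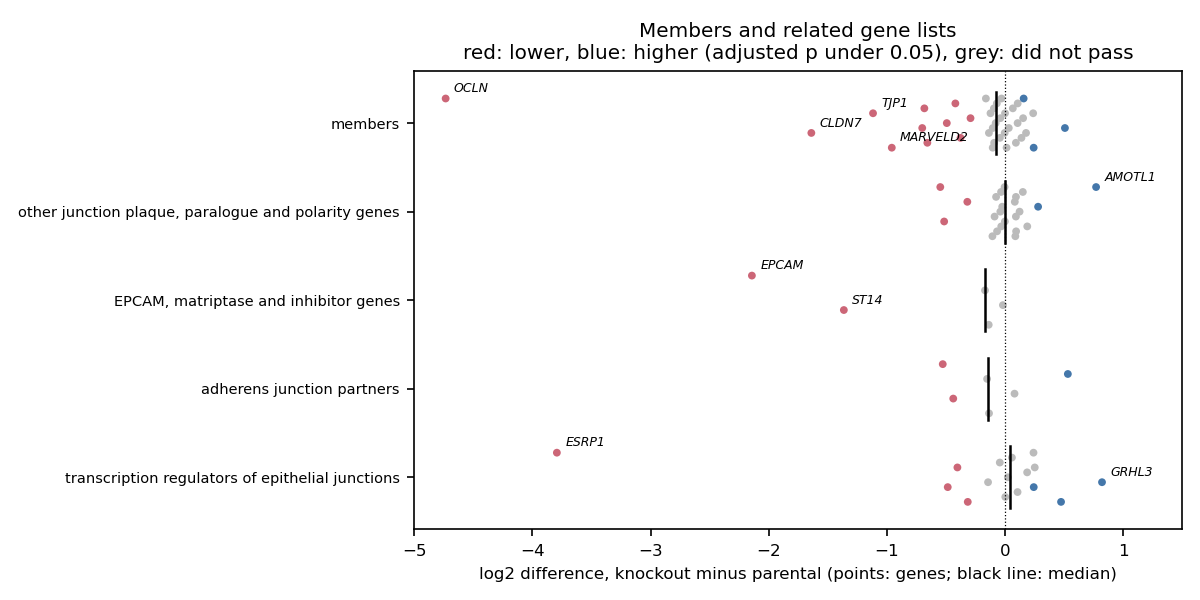
Log2 difference, knockout minus parental (x axis), of every measured gene (point) of the members and of 4 related lists (y axis), with the list median as a black line. Red points fell and blue points rose past the test. Most points lie within 1 log2 unit of 0, and OCLN, CLDN7, TJP1, EPCAM, ST14 and ESRP1 lie below -1.

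The cell type of the line was checked on its markers. The 3 measured of 11 basal markers, KRT5, KRT14 and EGFR, averaged 9.35 to 9.51 on the parental and 10.70 to 10.88 on the knockout arrays. All 3 rose, by 0.78, 2.59 and 0.69. The 9 luminal markers averaged 5.59 to 5.79 and 5.45 to 5.57, with KRT19, ESR1, ELF5 and PGR under the array medians throughout. Of these 9 luminal markers 3 fell, KRT18 (-0.94, adjusted p = 6.67e-07, without overlap), GATA3 (-0.44) and FOXA1 (-0.29), and none rose. Of 4 measured fibroblast markers (10 listed) LUM, THY1 and DPT were under the median on all 10 arrays, and the list averaged 4.07 to 4.34 and 4.53 to 4.76. DCN rose by 2.06 (adjusted p = 3.45e-10), from under the array median on all 5 parental arrays to above it on all 5 knockout arrays, and DPT fell by 0.38. Of 6 measured endothelial markers (10 listed), PECAM1, VWF, TIE1 and ESAM were under the array medians throughout, with list averages of 4.08 to 4.17 and 4.33 to 4.63. KDR rose by 1.69 (adjusted p = 1.43e-08) and crossed the array medians in the same way as DCN. The 4 measured immune markers (7 listed) averaged 5.60 to 5.74 and 5.51 to 5.63, and 3 of them changed. CD14 (-0.76, under the array medians throughout) and CD68 (-0.37) fell and CSF1R (0.72) rose, while LYZ, also under the medians throughout, did not pass. The part of these levels in the falls of the barrier genes was not tested. Knockout replicate 1 was the lowest knockout array for 16 of the 38 members, against 4 to 8 for each of the others, and without it 12 members fell. The same array was the highest knockout array for 10 members, against 4 to 10 for each of the others.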

How the data were processed

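The deposited table holds log2 signals per probe set, already summarised and normalised by the authors with Affymetrix Expression Console and Partek 6.6, per the submitters' processing notes. Which tool did which step, how probes were summarised and whether anything was filtered is not given in the sources used here. Values of 1.13 to 13.87 show a log2 scale. Of 53617 probe sets, 16098 had 1 gene symbol in GEO's platform annotation, updated by Entrez identifier through the RefSeq table of GRCh38.p14. 0 had several and 37519 had none named here. The number of arrays limits the precision, and the median SE of a log2 difference was 0.08.

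Groups were compared in R 4.3.3 by limma 3.58.1 (lmFit, then eBayes) over all 14884 genes, with no covariate, Benjamini-Hochberg adjustment over all of them and two-sided p-values, called at an adjusted p under 0.05. The procedure was tested on simulated data in which fewer genes changed than were called here, each by 0.5 or 1 log2 unit. Smaller differences were not simulated. Members given in full passed this test without overlap at an absolute difference of at least 0.5, and OCLN, TJP1, CLDN1 and CLDN7 were always included. The rule also asked for F11R, which was not analysed here. Further values per array were added for members past the test, and for MARVELD3 and PATJ, after they were seen. Related lists name up to 4 genes past the test without overlap, plus others chosen after their values were seen. Members and lists were chosen with earlier results of these data known. 1 further related list is not reported here but counts in the total over all related lists. H2AX was not analysed here, so the groups rest on the labels. Python 3.11.15 with pandas 2.3.3 and matplotlib 3.10.9 made the counts, the promoter search and the plots. Alternatives were quantile normalisation, centring, no dim genes, other variance models, array weights, a replicate block, the mean of all probe sets of a gene and each array left out.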

Additional observations from a re-analysis of the deposited data

Results flagged for a closer look

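Of 76 groups of 5 arrays (38 members in 2 groups), 6 had an array far from the others by Dixon's criterion, and chance flags about 1 in 20 groups. CLDN16 read 4.08 in parental replicate 2, against 3.58 to 3.70 in the other parental arrays. MARVELD3 read 5.12 in knockout replicate 1, against 5.71 to 5.95. LLGL1 read 7.09 in parental replicate 1, against 7.22 to 7.28, and LLGL2 read 5.88 in parental replicate 5, against 6.04 to 6.09. SCRIB read 6.43 in knockout replicate 1, against 6.53 to 6.56. AMOTL2 read 7.68 in knockout replicate 4, against 7.30 to 7.39. None of the 11 members that fell was among them.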

How the results depend on the processing

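Across 250 combinations of a called member with an alternative setting, 231 kept their direction and their call, 19 lost the call and 0 changed direction. The 19 were all PARD3 and LLGL2. The members that fell numbered 11 to 12 with an array left out, and those that rose 1 to 5. Under centring on array medians 1 member rose. Genes of all related lists that rose numbered 13 with an intensity trend, against 8. The 11 falls passed in every setting, except CLDN12, which was not tested without dim genes. CLDN15, dim by its mean over all arrays, stayed in that setting because its parental mean was 5.53. Equal replicate numbers did not pair the arrays (correlations of deviations 0.20, 0.04, 0.05, -0.01 and -0.01). With the replicate number as a block 11 members fell and 3 rose, the difference of PARD3 lost its call (adjusted p = 0.0593) and the difference of PARD6G gained one (adjusted p = 0.0247). Signs changed for members near 0 that did not pass: JAM2 was -0.01 with centring, and ILDR1 was -0.01 with array weights, -0.03 with centring and -0.02 with quantile normalisation. With an array left out CLDN10 ranged from -0.08 to 0.01, CLDN11 from -0.05 to 0.03, CLDN14 from -0.02 to 0.07, CLDN18 from -0.10 to 0.03, JAM2 from -0.03 to 0.06, ILDR1 from -0.04 to 0.03 and AMOT from -0.08 to 0.02. Dim probe sets limit what can be seen of 18 members.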
